A study of Homo sapiens with 6 samples.

Results

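Protein tyrosine phosphatases are the enzymes that remove phosphate from tyrosine residues, the reverse of what tyrosine kinases do. They fall into receptor-type proteins (PTPR genes), which cross the plasma membrane and carry adhesion-like extracellular domains, and cytosolic proteins (PTPN genes), which reach their substrates through SH2, FERM, PDZ or proline-rich parts. In myeloid cells they are known for setting the activity of Src family kinases, for carrying out the inhibitory signal of ITIM receptors and for regulating adhesion, cytokine receptors and ERK. Members were all genes measured by a probe set with a single gene symbol whose symbol is PTPN followed by a number, or PTPR followed by 1 letter and at most 1 digit. This gave 33 of the 18417 genes tested, 16 receptor type and 17 cytosolic type. PTPRA shares its probe set with VPS16 and was not a member. PTPRJ, PTPRQ and PTPRT were not analysed here, so the receptor class is covered in part.

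The cells were THP-1, a human line derived from a monocytic leukaemia, and all were grown in RPMI with 10% FBS, glutamate at 2.5 mM and mercaptoethanol at 0.05 mM. The 3 PMA arrays hold cells that received the phorbol ester PMA, an activator of protein kinase C, at 200 nM during 3 days, followed by 3 days of rest. The 3 unstimulated arrays hold cells of the same line without PMA. RNA was hybridised to single-channel Affymetrix arrays, and the deposited values are RMA log2 values, which compress changes near background. A single established line cannot stand for the range of human monocytes, and its differentiation by a phorbol ester is a model. No label describes the replicates as separate cultures, so the error behind each p-value may be technical only. The small number of arrays limits the precision.

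Array medians lay between 6.10 and 6.25 and lower quartiles between 4.46 and 4.57 on the log2 scale. Correlations between arrays over all probe sets were 0.988 to 0.993 within PMA, 0.989 to 0.995 within unstimulated and 0.958 to 0.968 between groups. Unstimulated replicate 1 and PMA replicate 3 stood farthest from the other arrays of their groups, with a median distance per gene of 0.15 and 0.14. Of 12 measured monocyte and macrophage markers, 8 rose and 1, LYZ, fell (log2 fold change −2.76 ± 0.13). Over all genes 13.2% rose and 13.2% fell. None of the 12 markers was below the lower quartile on all arrays. Of 40 measured markers of 7 other cell types, 3 were higher (PDGFRB, TIE1 and MAP2) and 2 lower (CD79A and KRT18) with PMA. All 7 T cell markers and all 4 erythroid and megakaryocytic markers did not pass. The summed linear signal of the 6 epithelial markers was 299.95 to 394 on PMA arrays and 379 to 516 on unstimulated arrays. For the 6 endothelial markers it was 290.5 to 371 on PMA arrays and 239 to 289 on unstimulated arrays. The part of such markers in the results below was not tested.

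Differences were tested with limma over all 18417 genes, with Benjamini-Hochberg adjustment and a threshold of 0.05 on the adjusted p. Of the 33 phosphatase genes, 17 passed (51.5%), where 26.4% of all genes did. With PMA, 9 rose (27.3%, against 13.2% of all genes) and 8 fell (24.2%, against 13.2%). At least 2-fold changes were found for 5 genes that rose (5.17% of all genes) and 3 that fell (3.2% of all genes). PMA and unstimulated arrays did not overlap for 20 members (60.6%), where 41.2% of all genes did not overlap. In bulk RNA, fewer cells making a transcript and less of it per cell cannot be told apart. The fall count was the less steady: over single arrays left out it ran between 2 and 7, and the rise count between 6 and 10. The shares of all genes moved as well. Without PMA replicate 2, 9 members rose and 2 fell, while 3768 genes passed in all, 53.4% of them higher. The share of members that fell was then below that of all genes. Without unstimulated replicate 1 and PMA replicate 3 together, an alternative chosen after seeing the data, 10 rose and 10 fell. With each array centred on its median, 9 rose and 4 fell, while 4713 genes passed in all, 61.8% of them higher.

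**Figure D1:**
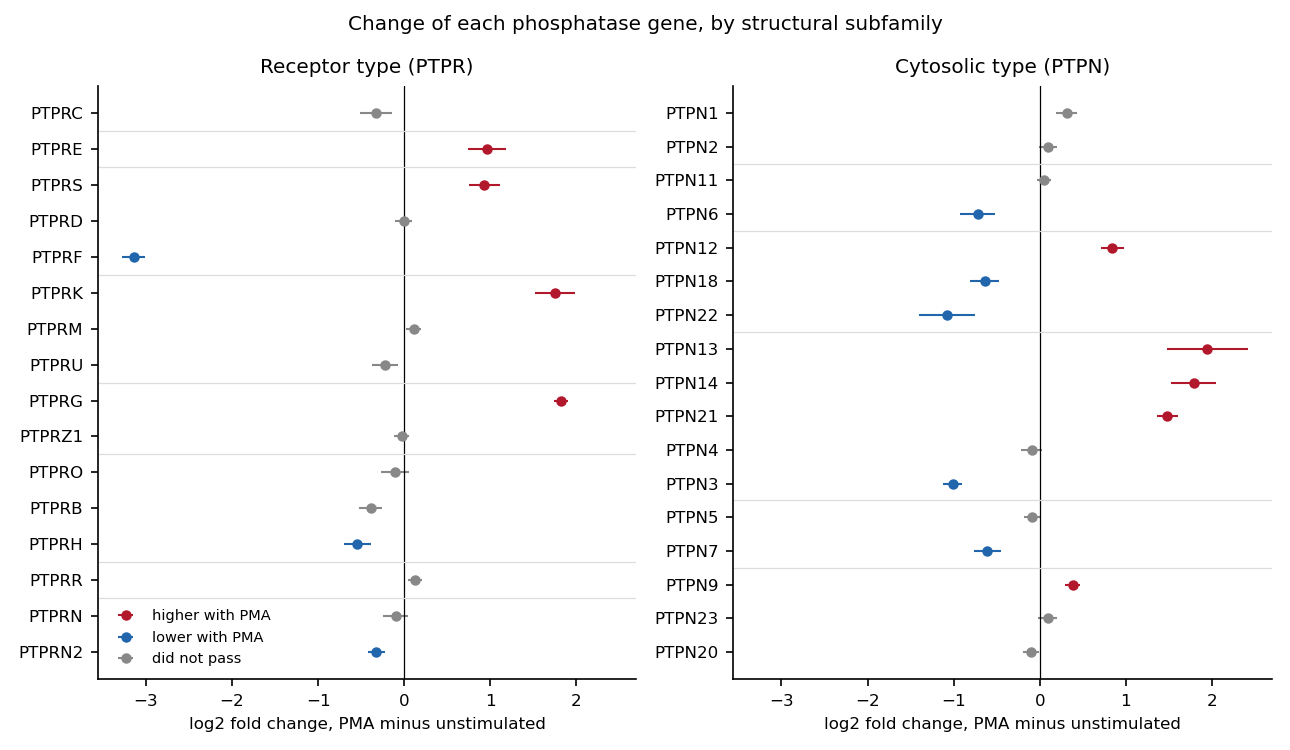
Log2 fold change (PMA minus unstimulated, x axis) of each of the 33 phosphatase genes with its standard error from limma (horizontal bars), receptor type on the left and cytosolic type on the right, with lines between structural subfamilies. PTPRF is the lowest point at −3.14, and rising and falling genes stand side by side within the LAR, PEST and FERM subfamilies.

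Both classes held rises and falls, and their medians were close to 0. The median log2 fold change was −0.06 over the receptor type and 0.05 over the cytosolic type, beside −0.03 over all genes. Among receptor genes 4 rose (25%) and 3 fell (18.8%), and 9 of 16 did not pass. Among cytosolic genes 5 rose (29.4%) and 5 fell (29.4%), and 7 of 17 did not pass. Over all genes 13.2% rose and 13.2% fell. The median size of the change, without its sign, was 0.32 for receptor and 0.61 for cytosolic genes, against 0.18 over all genes. Receptor genes held both the lowest single value (−3.14) and 8 members whose mean over all 6 arrays lay below the mean array median of 6.18. Of those 8 dim receptor genes 1 passed (12.5%, against 11.6% of all genes at that level). Of the 8 brighter receptor genes 6 passed (75%, against 36% of all genes at that level). Cytosolic genes passed in 7 of 11 brighter cases (63.6%) and 3 of 6 dimmer ones (50%). A difference between the classes was not tested.

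**Figure D2:**
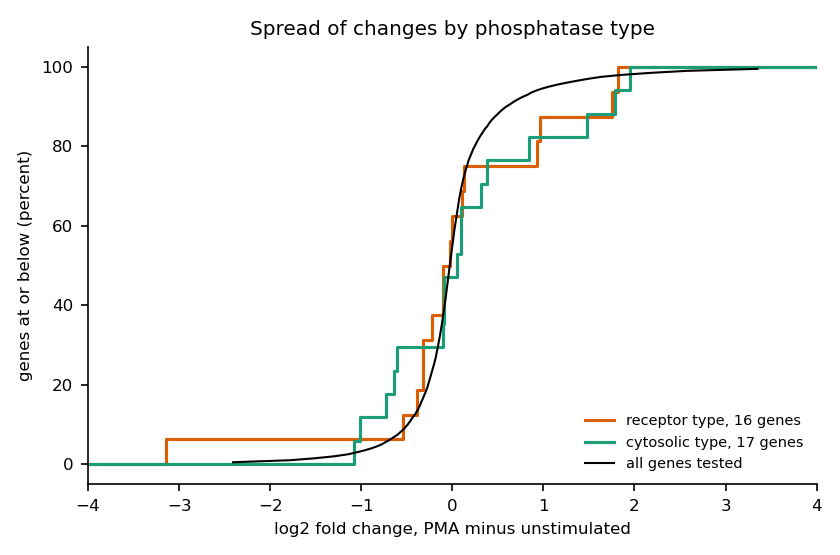
Cumulative share of genes (y axis, percent) at or below a log2 fold change (x axis, PMA minus unstimulated) for 16 receptor-type genes, 17 cytosolic-type genes and all genes tested, whose curve is drawn from its percentiles. The 3 curves cross close to 0, and both phosphatase curves lie below that of all genes at moderate positive changes.

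Start-site sequences are shown for 4 genes because the region before the start ranged from rich to poor in CpG dinucleotides across these genes. RefSeq windows (GRCh38.p14, 250 bases before to 50 after an annotated start) were matched for 30 of the 33 members, and PTPN11, PTPRB and PTPRN2 had none. The last 100 bases before the table's start are printed on the gene's strand, with CpG dinucleotides in capitals. They belong to PTPRG (chr3:61561471-61561570, plus strand) and PTPN14 (chr1:214551603-214551702, minus strand), which rose, and to PTPRF (chr1:43530783-43530882, plus strand) and PTPN22 (chr1:113871713-113871812, minus strand), which fell.
PTPRG: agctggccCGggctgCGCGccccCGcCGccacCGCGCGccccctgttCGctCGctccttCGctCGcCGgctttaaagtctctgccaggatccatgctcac
PTPN14: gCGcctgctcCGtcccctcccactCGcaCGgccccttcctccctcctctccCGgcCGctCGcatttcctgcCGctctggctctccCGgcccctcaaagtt
PTPRF: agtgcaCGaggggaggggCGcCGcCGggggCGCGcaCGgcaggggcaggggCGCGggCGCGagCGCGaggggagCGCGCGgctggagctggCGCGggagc
PTPN22: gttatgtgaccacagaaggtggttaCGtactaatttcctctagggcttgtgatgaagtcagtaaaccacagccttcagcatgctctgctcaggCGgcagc
These stretches hold 13, 9, 18 and 2 CpG in the order printed. A start in the table need not be the gene's outermost one. The PTPRF stretch precedes an annotated start that lies inside the gene, well downstream of its first base, and the PTPN22 stretch partly overlaps the outer end of its gene.

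In the richest window of each gene, the 9 genes that rose held 23 to 55 CpG per 300 bases, with a median of 34. The 7 genes with a window that fell held 4 to 45, with a median of 12, and the 14 that did not pass held 1 to 50, with a median of 25. The median over all 27305 genes with a RefSeq window, a set other than the 18417 genes tested, was 16. Of these 27305 genes, 39.4% held at least 23, the lowest count among the rising genes. Most phosphatase genes that did not pass also held at least 23. PTPN22, PTPN7, PTPRH and PTPN6, with 4, 8, 8 and 12 CpG, were the 4 falling genes below every rising one, and 4 genes that did not pass were below it as well. PTPRF, PTPN18 and PTPN3 fell with 37, 40 and 45 CpG in their richest windows. The calls of PTPN22, PTPRH, PTPN6, PTPN18 and PTPN7 were lost in 11, 11, 7, 7 and 5 of the 17 alternatives. Those of PTPRF and PTPN3 were kept in all 17. Of the rising genes, PTPN13, PTPN9, PTPRE and PTPRS lost theirs in 5, 4, 3 and 1. For PTPN13 there were 16 alternatives, as it was among the dimmest 25% of genes that 1 alternative left out. Genes with several annotated starts varied widely, from 4 to 35 CpG for PTPRE and from 0 to 45 for PTPN3, and the arrays do not say which start was used. The cytosolic class had a median of 29 CpG over 16 genes and the receptor class 36 over 14. These counts are a description with no test.

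**Figure D3:**
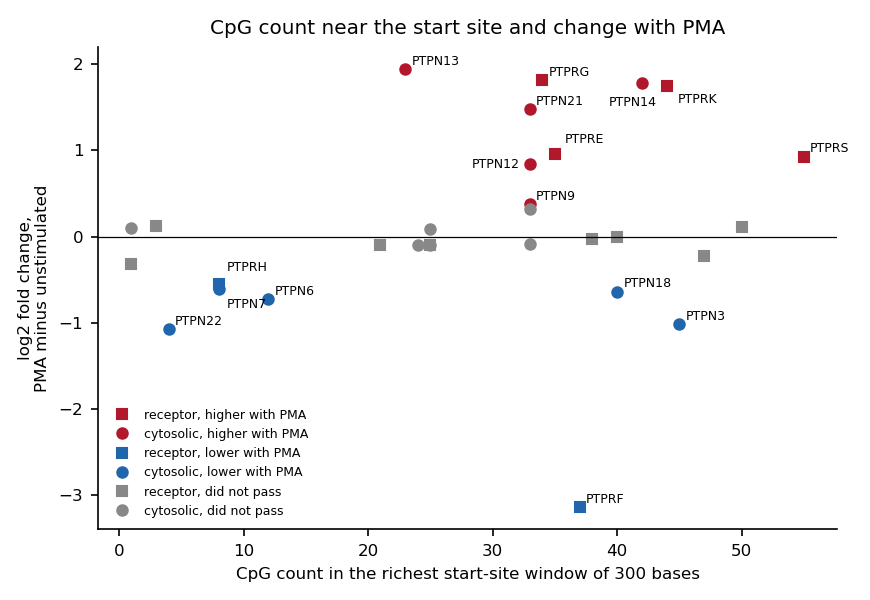
CpG dinucleotides in the richest 300-base start-site window of each of 30 phosphatase genes (x axis) against log2 fold change (y axis, PMA minus unstimulated), squares for receptor and circles for cytosolic type, with genes past the threshold named. The 9 genes that rose all lie at 23 CpG or more, and the genes that fell or did not pass lie on both sides of that count.

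The windows were searched on both strands for 3 short motifs. The AP-1 heptamer TGANTCA, bound by FOS and JUN proteins, was in 1 of the 48 windows of members (2.08%, against 7.71% of all windows), that of PTPN9. The octamer GAGGAAGT, which the myeloid factor PU.1 can bind, was in 2 windows (4.17%, against 2.59% of all), those of PTPN6 and PTPRH. The GC box GGGCGG was in 24 windows (50%, against 45% of all). None of these letter strings contains another. The matches are shown on the gene's strand with the motif in capitals, as the reverse complement in PTPRH, at chr15:75579344-75579372 (minus strand), chr12:6946590-6946619 (plus strand) and chr19:55209552-55209581 (minus strand).
PTPN9: agcgttggccgTGAGTCAggaggggggcg
PTPN6: gcaggatcgagGAGGAAGTggctgattact
PTPRH: agctgggttccACTTCCTCctcctcccctt
A match is only a run of letters, and binding was not measured.

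PTPRF showed the largest change of the 33 genes. It encodes LAR, a receptor with immunoglobulin and fibronectin repeats that sits at cell junctions and focal adhesions, and it lies at chromosome 1, 43522051 to 43623666 (GRCh38.p14). PTPRF was 6.35, 6.22 and 6.06 on the PMA arrays and 9.56, 9.16 and 9.33 on the unstimulated arrays. All PMA arrays lay far below all unstimulated ones. PTPRF fell by 3.14 ± 0.13 on the log2 scale (SE, n = 3 each), 8.84-fold, with an adjusted p of 5.68e-06 in limma. Only 0.234% of all genes had a log2 fold change as low or lower. The range over the alternatives was −3.24 to −2.96, and PTPRF passed in all 17.

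The other LAR-type receptors went elsewhere. PTPRS, a receptor for heparan and chondroitin sulphate proteoglycans, was 8.93, 8.74 and 8.19 on the PMA arrays and 7.59, 7.74 and 7.75 on the unstimulated arrays. PMA replicate 3 was the lowest of its group and still above every unstimulated array. PTPRS rose by 0.93 ± 0.18 (limma adjusted p = 0.00742), so its change and that of PTPRF lay 4.07 apart on the log2 scale. With a gene-wise variance PTPRS did not pass. PTPRD, the third member and mainly a neuronal receptor, was below the lower quartile of the arrays in both groups and did not pass (−0.01 ± 0.10).

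PTPRG rose with the least spread. The receptor carries a carbonic anhydrase-like domain that binds contactins, and its gene spans 61561571 to 62297609 on chromosome 3. PTPRG was 9.30, 9.20 and 9.21 on the PMA arrays and 7.45, 7.38 and 7.42 on the unstimulated arrays. The groups were tight and did not overlap. The log2 fold change was 1.82 ± 0.08, 3.53-fold, with an adjusted p of 9.02e-06 in limma. PTPRG ranged from 1.79 to 1.91 over the alternatives. PTPRZ1, the related brain proteoglycan that binds pleiotrophin, was near background in both groups (−0.03 ± 0.09, adjusted p = 0.863).

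PTPRK, a homophilic adhesion receptor of the MAM-domain type, also rose. PTPRK was 9.35, 9.70 and 8.71 on the PMA arrays and 7.67, 7.43 and 7.41 on the unstimulated arrays. PMA replicate 3 was again the lowest PMA array, and the groups did not overlap. The log2 fold change was 1.75 ± 0.23 (limma adjusted p = 0.00121), and it ranged from 1.53 to 2.10 over the alternatives. The related adhesion receptors PTPRM (0.11 ± 0.09, adjusted p = 0.453) and PTPRU (−0.22 ± 0.15, adjusted p = 0.362) did not pass. PTPRU overlapped between groups, while PTPRM was a little higher on every PMA array (5.11 to 5.12) than on the unstimulated ones (4.896 to 5.09).

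PTPRE has a short extracellular part and is also made as a cytosolic form from another start, the form known in blood cells. The single probe set does not tell the forms apart here. PTPRE was 9.52, 9.59 and 9.34 on the PMA arrays and 7.98, 8.76 and 8.82 on the unstimulated arrays. Unstimulated replicate 1 was low, and the groups did not overlap. The log2 fold change was 0.96 ± 0.22 (limma adjusted p = 0.0138), and without PMA replicate 1 the adjusted p was 0.0534. PTPRC encodes CD45, the abundant leukocyte phosphatase that removes the inhibitory phosphate of Src family kinases. PTPRC was 9.89, 9.66 and 9.83 on the PMA arrays and 9.67, 10.30 and 10.37 on the unstimulated arrays. The overlap came from unstimulated replicate 1, and PTPRC did not pass (−0.32 ± 0.19, adjusted p = 0.263). Without that array PTPRC passed at −0.55 (adjusted p = 0.0105).

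The remaining receptor genes changed little or sat near background. PTPRH, an epithelial receptor with fibronectin repeats, was 5.18, 5.365 and 5.18 on the PMA arrays and 5.44, 5.95 and 5.97 on the unstimulated arrays. The groups did not overlap, and PTPRH fell by 0.55 ± 0.16 (limma adjusted p = 0.0358). Its relatives PTPRB of vascular endothelium (−0.39 ± 0.13, adjusted p = 0.0696) and PTPRO, which has a short macrophage form (−0.10 ± 0.16, adjusted p = 0.721), did not pass. PTPRB passed without PMA replicate 3 (−0.50) or without unstimulated replicate 1 (−0.48). PTPRN2, a secretory granule protein with little activity on phosphotyrosine proteins, fell by 0.32 ± 0.10 with an adjusted p of 0.0489, the closest call of the 17. The PTPRN2 call was lost in 13 of the 17 alternatives and that of PTPRH in 11. PTPRN of the same granule type (−0.10 ± 0.14) and PTPRR, which binds ERK through a kinase interaction motif (0.12 ± 0.08), did not pass.

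**Figure D4:**
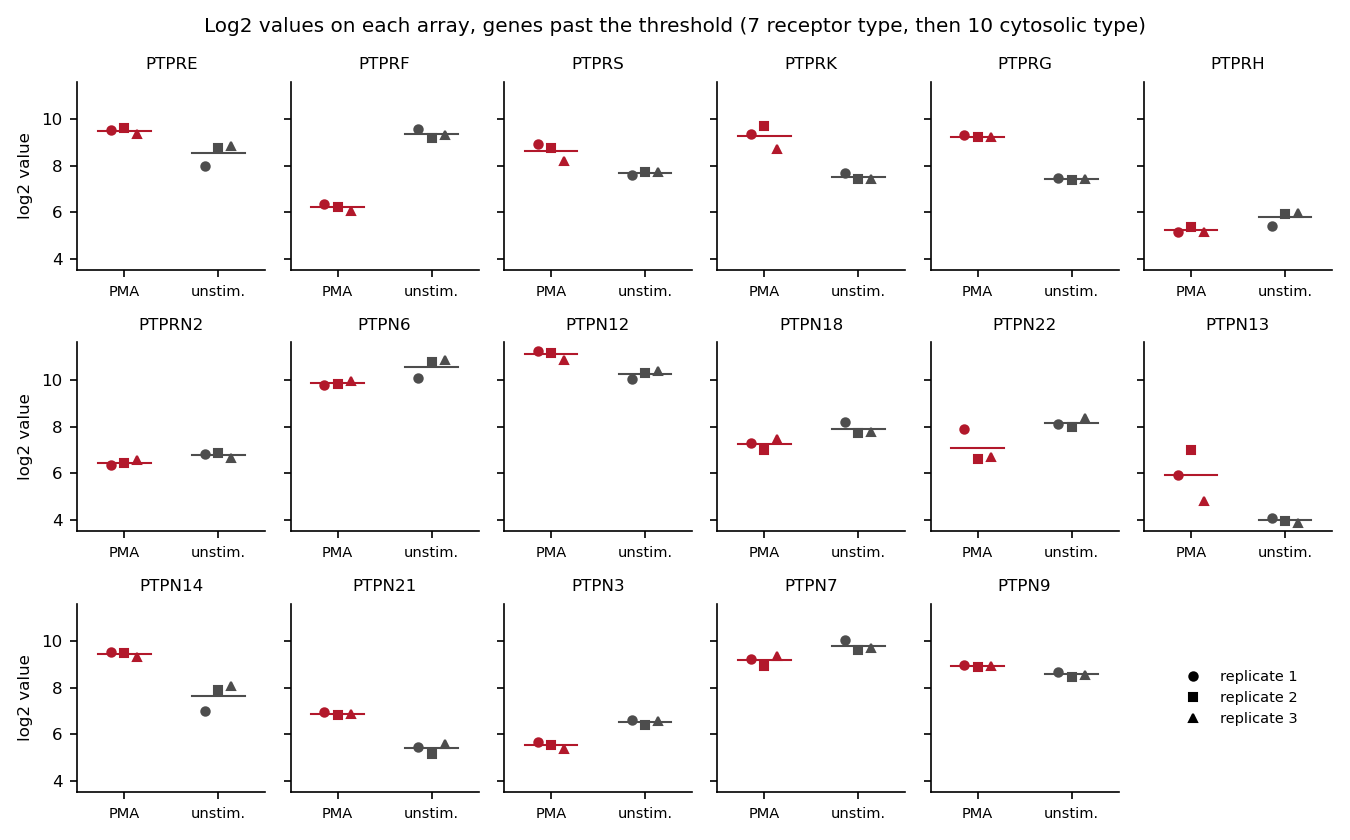
Log2 values (y axis) on each of the 3 PMA and 3 unstimulated arrays for the 17 phosphatase genes past the threshold, with symbols for replicates and a line at each group mean. The largest separation is that of PTPRF, and PTPN13 and PTPN22 spread widely over the PMA arrays.

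Among cytosolic genes, those with a FERM domain, which ties proteins to the membrane and cytoskeleton, made up the largest rises. Of 5 such genes, 3 rose and 1 fell, beside 13.2% of all genes in each direction. PTPN14, a regulator of the transcription coactivator YAP, was 9.55, 9.49 and 9.29 on the PMA arrays and 6.996, 7.90 and 8.07 on the unstimulated arrays. Unstimulated replicate 1 was low, and every PMA array lay above every unstimulated one. PTPN14 rose by 1.79 ± 0.26 (limma adjusted p = 0.0019), and by 1.46 without unstimulated replicate 1. PTPN21, its closest relative in domain layout and a binding partner of Src, was 6.94, 6.84 and 6.89 on the PMA arrays and 5.48, 5.16 and 5.58 on the unstimulated arrays. The groups were well apart, and PTPN21 rose by 1.48 ± 0.12 (adjusted p = 0.000136).

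PTPN13, a large scaffold phosphatase with PDZ domains that binds FAS, was 5.95, 7.02 and 4.83 on the PMA arrays and 4.09, 3.98 and 3.88 on the unstimulated arrays. The unstimulated arrays were all below the lower quartile, so the size of the change is uncertain, and the PMA arrays disagreed by more than 2 log2 units. PTPN13 rose by 1.95 ± 0.47 (limma adjusted p = 0.0177), and the call was lost without PMA replicate 1 or without unstimulated replicate 2 or 3. PTPN3, which joins a FERM to a PDZ domain, moved the other way. It was 5.69, 5.54 and 5.36 on the PMA arrays and 6.63, 6.41 and 6.59 on the unstimulated arrays. The groups did not overlap, and PTPN3 fell by 1.01 ± 0.12 (adjusted p = 0.000609), a call kept in all 17 alternatives. PTPN4, which has the same layout, did not pass (−0.09 ± 0.12, adjusted p = 0.65).

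All 3 PEST-type genes, whose proline-rich tails bind cytoskeletal and kinase partners, passed, 1 higher and 2 lower. Over all genes 13.2% were higher and 13.2% lower, and the calls of the 2 falling genes were not steady. PTPN12, which dephosphorylates the focal adhesion protein p130Cas, was 11.23, 11.17 and 10.86 on the PMA arrays and 10.06, 10.30 and 10.39 on the unstimulated arrays. The groups did not overlap, and PTPN12 rose by 0.84 ± 0.14 (limma adjusted p = 0.00303). PTPN22, a lymphoid and myeloid phosphatase that partners the kinase CSK, was 7.91, 6.62 and 6.71 on the PMA arrays and 8.12, 7.98 and 8.37 on the unstimulated arrays. PMA replicate 1 lay almost at the unstimulated level. PTPN22 fell by 1.08 ± 0.32 (adjusted p = 0.0419), and the call was lost in 11 of 17 alternatives. PTPN18 was 7.31, 7.003 and 7.47 on the PMA arrays and 8.22, 7.72 and 7.77 on the unstimulated arrays. The groups did not overlap, and PTPN18 fell by 0.64 ± 0.17 (adjusted p = 0.0281). The PTPN18 call was lost with centred arrays and without PMA replicate 1 or 2 or unstimulated replicate 1 or 3. The changes of PTPN12 and PTPN22 lay 1.92 apart, and those of PTPN12 and PTPN18 1.48.

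The SH2-domain phosphatases PTPN6 (SHP-1) and PTPN11 (SHP-2) are both recruited to phosphorylated receptor tails, the first mainly by inhibitory receptors and the second largely in growth factor signalling. PTPN6 was 9.78, 9.82 and 9.94 on the PMA arrays and 10.08, 10.79 and 10.85 on the unstimulated arrays. Every PMA array was below every unstimulated array, of which replicate 1 was the lowest. PTPN6 fell by 0.72 ± 0.20 (limma adjusted p = 0.0304), and by 0.58 with an adjusted p of 0.106 without unstimulated replicate 3. Without unstimulated replicate 1 the adjusted p was 0.000712. The call was also lost with cyclic loess and without PMA replicate 1 or 2 or unstimulated replicate 2. PTPN11 was 9.91, 9.98 and 9.88 on the PMA arrays and 9.85, 9.87 and 9.90 on the unstimulated arrays. Its groups overlapped, and the log2 fold change of 0.05 ± 0.08 had a 95% interval of −0.15 to 0.24.

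PTPN1 (PTP1B, held on the endoplasmic reticulum) and PTPN2 (TC-PTP, which acts on JAK kinases) did not pass, at 0.31 ± 0.12 and 0.10 ± 0.10. PTPN1 was higher on every PMA array (9.47 to 9.87) than on the unstimulated arrays (9.35 to 9.44) and passed without PMA replicate 3 (0.44, limma adjusted p = 0.0145). PTPN7, a blood cell phosphatase that inactivates ERK and p38, was 9.24, 8.93 and 9.36 on the PMA arrays and 10.04, 9.63 and 9.68 on the unstimulated arrays. The groups did not overlap, and PTPN7 fell by 0.61 ± 0.15 (adjusted p = 0.0228). The PTPN7 call was lost without PMA replicate 1 or 2 or unstimulated replicate 3. PTPN5, its neuronal relative, did not pass (−0.09 ± 0.09). PTPN9, found on secretory vesicles of blood cells, rose by 0.38 ± 0.09 (adjusted p = 0.0191), a call lost without PMA replicate 1 or unstimulated replicate 2 or 3. PTPN23, a partner of the endosomal ESCRT machinery (0.09 ± 0.11), and PTPN20 (−0.10 ± 0.09), which was near background in both groups, did not pass.

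**Figure D5:**
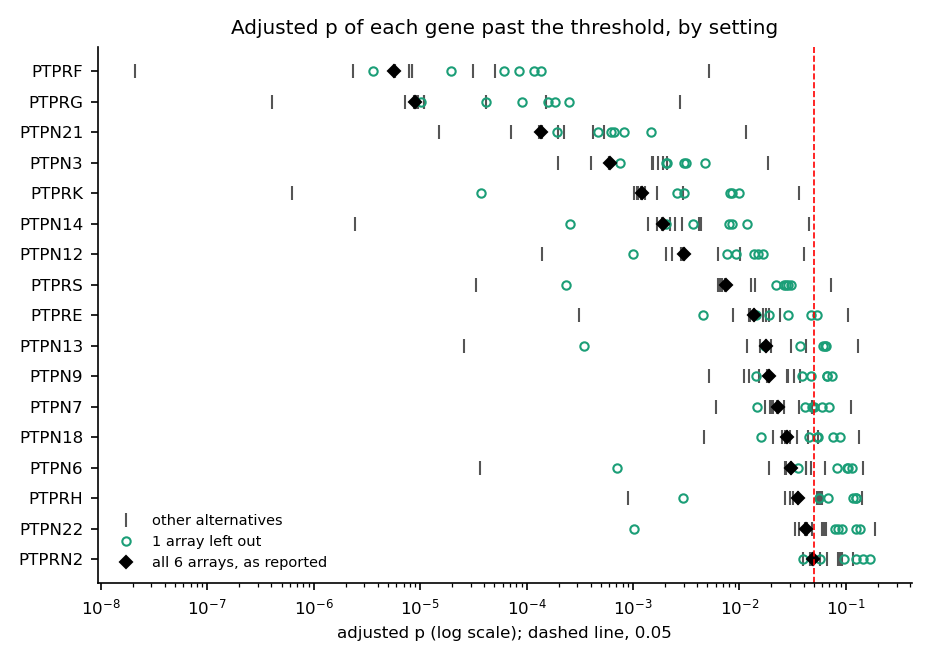
Adjusted p (x axis, log scale) of each of the 17 phosphatase genes past the threshold with all 6 arrays (diamonds), with 1 array left out (circles) and under the other alternatives that keep the threshold of 0.05 (ticks). The upper 7 genes stay left of the dashed line at 0.05 under every setting shown, and PTPRN2, PTPN22 and PTPRH cross it most often.

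Partners of the phosphatases were described from lists of kinases, receptors, adaptors and ligands. Over all genes 13.2% were higher and 13.2% lower, 26.4% together. Of 19 Src family kinases and regulators, 6 rose and 4 fell (52.6% called, against 26.4% of all genes), with a median log2 fold change of 0.14. The focal adhesion kinase PTK2 (2.37 ± 0.13), FYN (1.75 ± 0.16) and the ubiquitin ligase CBLB (1.63 ± 0.29) rose most, and TEC fell (−2.07 ± 0.18). SRC (0.39 ± 0.16, limma adjusted p = 0.128) and LYN (0.17 ± 0.14, adjusted p = 0.436) did not pass. Of 18 inhibitory receptors that can bind PTPN6 or PTPN11, 5 rose and 4 fell (50% called, against 26.4% of all genes), with a median of −0.01. CD22 (3.602 ± 0.58), SIGLEC9 (2.40 ± 0.16) and SIGLEC7 (1.31 ± 0.20) rose, CLEC12A fell (−2.52 ± 0.25) to below the lower quartile, and SIRPA, a main carrier of PTPN6 in macrophages, rose by 0.80 ± 0.11. Of 22 receptor tyrosine kinases, 7 rose and 4 fell (50% called, against 26.4%). MET (3.597 ± 0.57, with an unstimulated mean below the lower quartile), PDGFRA (3.15 ± 0.36) and MERTK (2.78 ± 0.26) rose, FLT3 fell (−3.67 ± 0.34), and EGFR, a known substrate of PTPRK, did not pass (0.21 ± 0.15).

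Of 21 docking and adaptor proteins, 6 rose and 5 fell (52.4% called, against 26.4% of all genes, 13.2% in each direction). LAT (3.06 ± 0.33), BCAR1 (1.37 ± 0.17), which encodes the PTPN12 substrate p130Cas, and the focal adhesion protein PXN (1.03 ± 0.15) rose, and PSTPIP2, of a family that binds PEST-type phosphatases, fell (−1.99 ± 0.13). PSTPIP1 of the same family, named after its values were seen, rose by 0.32 ± 0.09 (limma adjusted p = 0.0285). Of 31 ligands and partners of receptor-type phosphatases, 9 rose and 5 fell (45.2% called, against 26.4% of all genes). NTRK3, a partner of PTPRS at synapses (2.74 ± 0.22), and the heparan sulphate proteoglycans SDC2 (2.47 ± 0.11) and GPC4 (2.18 ± 0.16) rose. GPC3, another such proteoglycan and named here after its values were seen, fell by 2.30 ± 0.15. The contactin CNTN4, which binds PTPRG, was 4.52, 4.31 and 4.67 on the PMA arrays and 7.39, 7.60 and 8.07 on the unstimulated arrays (−3.19 ± 0.18). The CD45-associated protein gene PTPRCAP did not pass (0.02 ± 0.09, limma adjusted p = 0.93). Of 9 ERK and p38 pathway kinases, 3 rose and 1 fell (44.4% called, against 26.4% of all genes). MAPK13 (1.32 ± 0.15), MAP2K1 (0.995 ± 0.11) and MAP2K3 (0.64 ± 0.12) rose and MAP2K6 fell (−1.001 ± 0.14). Of 29 other tyrosine phosphatases and phosphatase-like proteins, 5 rose and 7 fell (41.4% called, against 26.4% of all genes). UBASH3B (−1.43 ± 0.27), CDKN3 (−1.01 ± 0.16) and SSH3 (−0.97 ± 0.12) fell most, and the tensin TNS3 rose (1.25 ± 0.11).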

How the data were processed

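The authors deposited log2 values for 33297 probe sets on 6 arrays. RMA and Partek are named in the submitters' processing notes, with versions not given in the sources used here. Samples were grouped by their titles. Of the probe sets, 19460 carried 1 gene symbol in the platform annotation, 1754 several and 12083 were not named there. Symbols were updated by gene ID (GRCh38.p14 gene table) for 19429, and the probe set with the highest mean over 6 arrays stood for a gene. The test was limma 3.58.1 under R 4.3.3, with lmFit and eBayes and group as the only term, with Benjamini-Hochberg adjustment over 18417 genes. Standard errors are from that fit, and intervals use its 7.71 degrees of freedom. No filter on dim genes was applied.

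The members and lists were chosen with earlier results of these data known. All members may be named, and of each list the 3 largest changes in the direction most took and 1 in the other, plus 7 genes whatever their values. Subfamilies follow textbook domain layouts. On simulated data (10 runs, 18417 genes, 200 changed), changes of 1.5-fold were called in 41% of cases, 2-fold in 75.8% and 4-fold in 96.8%. Of the calls, 5.18% were false. That simulation changed far fewer genes than the 26.4% that passed here, so its rates need not hold for these data. Same-numbered replicates were checked for pairing. Figures were drawn with matplotlib 3.10.9.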

Additional observations from a re-analysis of the deposited data

How the results depend on the processing

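Of the 17 phosphatase genes that passed, 7 (PTPRF, PTPRG, PTPRK, PTPN14, PTPN21, PTPN12 and PTPN3) passed under all 17 alternatives, and PTPRS failed only with a gene-wise variance. The gene-wise variance and a threshold of 0.01 each lost 9 calls. Falls were lost more often than rises. The number lower was 4 with centred arrays (1 receptor, 3 cytosolic) and 4 with cyclic loess (1 and 3). It was 5 with every probe set tested (1 receptor), 2 with a gene-wise variance (1 and 1) and 2 at a threshold of 0.01 (1 and 1). With quantile normalization repeated, 1 receptor gene was lower. Receptor genes higher numbered 2 with a gene-wise variance, and cytosolic genes higher 3 at 0.01. Without both arrays that stood apart, 5 receptor genes were lower. In all, 2843 genes passed with a gene-wise variance (48.7% of them higher) and 2824 at 0.01 (53.4% higher). In both settings the share of phosphatase genes that fell was a little below that of all genes. With centred arrays 4713 genes passed, and with cyclic loess 4913 (59.8% higher). Of all genes called, 61.8% were higher with centred arrays and 50.1% as reported. The stricter threshold calls fewer genes by construction. Centring adds the same amount to every log2 fold change by construction, and the median over all genes went from −0.028 to 0.057. The cause of the other shifts was not tested.

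The receptor median was 0.022 with centred arrays and −0.16 with the dimmest 25% of genes left out. The cytosolic median was 0.13 with centred arrays, 0.12 with cyclic loess and 0.070 with the dimmest 25% left out. With 1 array left out, the counts ran from 6 to 10 higher and 2 to 7 lower, for receptor genes 3 to 4 and 1 to 4, for cytosolic genes 3 to 6 and 1 to 4, and over all genes from 3323 to 5042. The medians then ran from −0.11 to −0.02 (receptor) and from 0.019 to 0.069 (cytosolic). PTPRD turned to 0.054, 0.080, 0.041 and 0.058 with quantile normalization, centred arrays, cyclic loess and both arrays left out, and PTPRZ1 to 0.019, 0.056, 0.0010 and 0.0078 in the same order. With 1 array left out, PTPRD ran from −0.086 to 0.040, PTPRZ1 from −0.074 to 0.012 and PTPRO from −0.26 to 0.046, and none of these values passed.

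Whether the replicate numbers pair the arrays cannot be told from 3 arrays a group. Deviations of same-numbered arrays correlated at 0.18, −0.02 and 0.05, and those of differently numbered arrays between −0.15 and 0.11. With the number as a replicate block, 9 phosphatase genes were higher and 7 lower, the call of PTPRN2 was lost, and 4726 genes passed in all.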

Other observations

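The probe set shared by PTPRA, a receptor phosphatase that activates SRC, and VPS16, a subunit of endosomal tethering complexes, was 7.21, 7.05 and 7.28 on the PMA arrays and 7.23, 7.23 and 7.33 on the unstimulated arrays. The groups overlapped, and the signal of the 2 genes cannot be told apart in it.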
